A study of Mus musculus with 18 samples.

Results

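The 41 genes described here were a fixed list of cell cycle and DNA replication genes, taken by name from the deposited gene expression table of mouse embryonic fibroblasts (MEFs). The table has 51499 loci and gave a row for 39 of the 41 genes, and Cdt1 and Gins2 were not analysed here. Of these 39, 38 had a mean of at least 1 FPKM over the 6 groups (fragments per kilobase of transcript, scaled to the mapped fragments, so a level per transcript length), as did 11929 loci in all. By role, 12 of the 38 act in DNA replication (8 in licensing and the helicase, 4 in the clamp and nucleotide supply), 8 are cyclins, kinases and E2f1 of the G1 and S phases, and 18 act in mitosis (9 regulators of the G2 and M phases, 9 at the checkpoint, kinetochore and spindle).

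The MEFs were labelled Ago2+/+ (titled DCR1 in part of the labels) or Ago2-/-, cells with or without Argonaute 2, the small-RNA-guided slicer. After 3 days of growth to around 70% confluency, each was given DMSO, the solvent (for RNA sequencing the study's methods call these cells untreated), or an agent that stresses the endoplasmic reticulum (ER) for 6 h. The agents were tunicamycin at 3 µg/ml, which blocks N-glycosylation, and thapsigargin at 500 nM, which empties ER calcium stores. The 6 groups had 3 libraries each, and the table gives 1 pooled FPKM per group, so no spread between replicates could be computed and no difference below was tested. The Ago2+/+ and Ago2-/- cells were obtained as a pair of MEF cultures, so what differs between these cultures besides Ago2 cannot be told apart from Ago2. According to the study's reporting summary the cells were not authenticated, and loss of the AGO2 protein in the Ago2-/- MEFs was checked by western blotting. The methods and the reporting summary name different sources of the cells.

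The labels did not match the Ago2 level. With DMSO, tunicamycin and thapsigargin, the Ago2+/+ label had 22.1, 5.75 and 17.0 FPKM of Ago2, and the Ago2-/- label had 5.61, 15.5 and 20.7 FPKM. The lowest 2 values thus came from 1 group of each label, and 4 of the 18 libraries carry labels that conflict on the genotype. Every group is therefore called by its label only. Of 11 fibroblast markers, 9 or 10 stood at 1 FPKM or more in each group, while Thy1 was at 0 in all of them. Of 13 markers of other cell types, 11 were below 1 FPKM in every group. The exceptions were the macrophage marker Cd68 (1.13 to 1.82 FPKM) and Sox2, a factor of pluripotent and neural cells, at 5.72 and 5.86 FPKM in Ago2+/+ tunicamycin and Ago2-/- DMSO and at or near 0 in the other 4 groups.

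A dividing cell passes through G1, S, G2 and M phases. In G1, D-type cyclins with Cdk4 and E-type cyclins with Cdk2 phosphorylate the retinoblastoma protein, which frees E2F factors to switch on replication genes. Origins are licensed by loading the MCM helicase with the help of Cdc6, and later in the cycle Cdk1 with A- and B-type cyclins drives mitosis. Genes of G1 and S phase are known for E2F sites in their promoters, and genes of G2 and M phase for the cell cycle genes homology region (CHR) and for CCAAT boxes bound by NF-Y.

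These sequences were looked for in the RefSeq promoters of build GRCm38.p6, each 300 bases long, from 250 before to 50 after the start of the gene. A promoter was found for 29 of the 39 genes, as 31 promoters, and not for Mcm4, Gins1, Ccnd1, Ccnd2, Ccne2, Ccna2, Aurkb, Cdc25c, Kif20a and Tpx2. The letters searched on both strands were TTTCCCGC, TTTGGCGC, TTTCGCGC and TTTGCCGC for an E2F-like match, TTTGAA and TTCGAA for a CHR match, and CCAAT. E2F-like letters can overlap each other, and matches of different motifs can share an end base. E2F-like letters occurred in 5 of the 11 promoters of replication genes (45.5%), in 1 of the 14 of mitosis genes (7.14%) and in 2.26% of all 32851 promoters. CHR letters showed the reverse order, with 11 of 14 promoters of mitosis genes (78.6%), 2 of 11 of replication genes (18.2%) and 19.2% of all promoters. CCAAT was in 13 of 14 promoters of mitosis genes (92.9%), 9 of 11 of replication genes (81.8%) and 37.4% of all promoters. The 6 promoters of G1 and S genes held an E2F-like match in 1, CCAAT in 2 and no CHR letters.

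The promoters of 7 genes are shown as the 250 bases before the start, because they hold the letters of their class within that stretch. Cdk1 holds the letters of both classes. The start is that of RefSeq throughout. For Cdc6 the stretch lies inside the gene as annotated for its deposited locus (chr11:98907801-98923940), which starts earlier. Capitals mark every E2F-like, CHR and CCAAT match (ATTGG is CCAAT on the other strand).
Mcm6 (chr1:128359706-128359955, minus strand): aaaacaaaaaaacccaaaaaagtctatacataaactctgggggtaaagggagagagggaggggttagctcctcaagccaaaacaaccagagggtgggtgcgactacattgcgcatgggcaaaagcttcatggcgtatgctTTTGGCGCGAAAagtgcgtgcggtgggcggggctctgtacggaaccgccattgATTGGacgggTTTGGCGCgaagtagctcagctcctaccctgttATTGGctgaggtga
Cdc6 (chr11:98907901-98908150, plus strand): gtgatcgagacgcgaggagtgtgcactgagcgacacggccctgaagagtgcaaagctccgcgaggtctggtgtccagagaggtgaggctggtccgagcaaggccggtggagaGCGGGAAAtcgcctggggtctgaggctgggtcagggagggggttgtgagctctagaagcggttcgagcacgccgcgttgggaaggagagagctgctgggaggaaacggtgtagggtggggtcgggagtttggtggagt
Cdk2 (chr10:128705052-128705301, minus strand): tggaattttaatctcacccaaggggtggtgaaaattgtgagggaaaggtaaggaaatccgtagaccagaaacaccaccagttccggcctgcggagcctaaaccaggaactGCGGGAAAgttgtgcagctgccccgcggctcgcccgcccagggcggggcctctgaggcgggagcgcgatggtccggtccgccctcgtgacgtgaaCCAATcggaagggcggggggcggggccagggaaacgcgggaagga
Cdk1 (chr10:69352913-69353162, minus strand): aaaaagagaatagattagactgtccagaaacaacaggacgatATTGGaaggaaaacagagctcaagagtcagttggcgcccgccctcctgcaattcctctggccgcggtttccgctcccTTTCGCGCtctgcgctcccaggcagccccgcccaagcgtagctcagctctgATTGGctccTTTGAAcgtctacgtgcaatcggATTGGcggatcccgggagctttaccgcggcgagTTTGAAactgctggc
Ccnb2 (chr9:70421555-70421804, minus strand): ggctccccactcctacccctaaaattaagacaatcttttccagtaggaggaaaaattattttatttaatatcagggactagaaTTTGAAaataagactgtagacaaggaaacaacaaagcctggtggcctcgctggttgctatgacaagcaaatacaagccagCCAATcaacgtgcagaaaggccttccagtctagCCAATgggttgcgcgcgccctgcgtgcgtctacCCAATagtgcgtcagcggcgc
Cdc20 (chr4:118437344-118437593, minus strand): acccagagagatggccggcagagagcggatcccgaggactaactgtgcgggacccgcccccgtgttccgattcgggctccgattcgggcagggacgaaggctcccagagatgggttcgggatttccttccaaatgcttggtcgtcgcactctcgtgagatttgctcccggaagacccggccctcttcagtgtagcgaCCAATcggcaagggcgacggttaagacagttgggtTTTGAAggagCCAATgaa
Top2a (chr11:99024190-99024439, minus strand): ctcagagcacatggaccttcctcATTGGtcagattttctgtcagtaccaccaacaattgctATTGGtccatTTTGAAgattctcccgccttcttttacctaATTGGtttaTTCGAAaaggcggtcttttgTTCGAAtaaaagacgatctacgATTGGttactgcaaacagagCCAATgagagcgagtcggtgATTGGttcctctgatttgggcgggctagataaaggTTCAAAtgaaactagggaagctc
Mcm6 holds an E2F-like pair that overlaps on the opposite strands, 110 bases before the start, and a further match 47 bases before it, with no CHR letters. Cdc6 and Cdk2 hold 1 E2F-like match each, at 138 and 140 bases before the start. Cdk1, the kinase of mitosis, was the only one of the 14 mitosis genes with a promoter that held E2F-like letters, and it also held 2 CHR matches and 3 CCAAT boxes. Ccnb2 has 3 CCAAT boxes that begin 87, 54 and 21 bases before the start, and Top2a has 6 of them and 4 CHR matches. A match is a description of letters and not of binding, and its absence says only that these letters are not in the window.

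**Figure D1:**
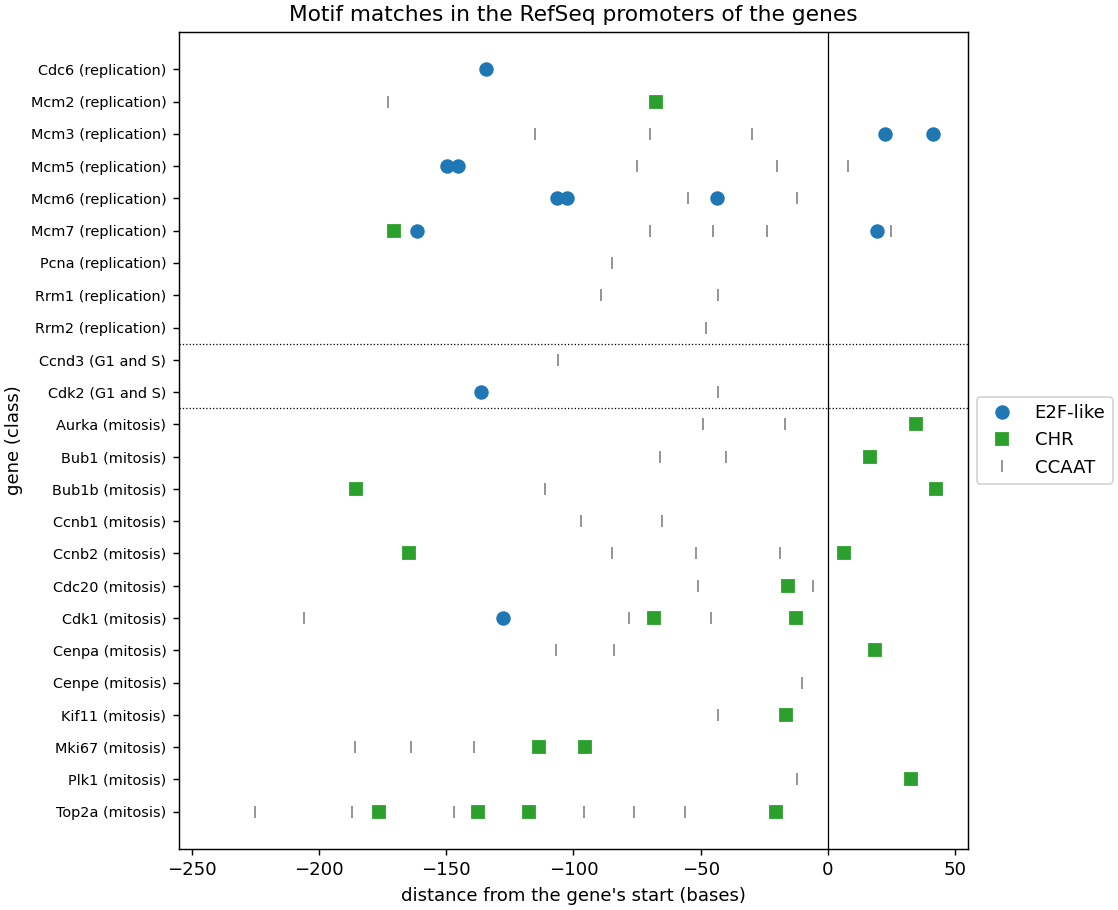
Position of each match of the E2F-like (circles), CHR (squares) and CCAAT (ticks) letters in the promoters of the genes that hold any, by distance in bases from the start of the gene (vertical line), with dotted lines between replication, G1 and S, and mitosis genes. E2F-like matches sit mostly in the replication genes and CHR matches in the mitosis genes, and Cdk1 and Mcm7 hold all of the 3 kinds.

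Most of these genes were abundant in every group. Mean FPKM over the 6 groups ran from 12.7 for Ccne1 to 583 for Cdk4, with a median of 87.5 against 16.1 over all 11929 loci. The ratio of the highest to the lowest group (of FPKM + 1) had a median of 1.66 over the 38 genes and the same median, 1.66, over all loci. Ratios of 2 or more were found for 6 of the 38 genes (15.8%) and for 32.3% of all loci, and ratios under 1.5 for 15 of the 38 (39.5%) and for 36.4% of loci. The 6 were Ccnd1, Ccnd2, Cdk2, Rrm2, Mcm3 and Cenpa, and Bub1 (1.18), Plk1 (1.18) and Mcm7 (1.21) were the steadiest of the 38.

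Most of the list, but not all of it, shared the lowest 2 groups. In 22 of the 38 genes (57.9%) the lowest 2 groups were those labelled Ago2-/- DMSO and Ago2+/+ tunicamycin, while this held for 26.4% of all loci. These 22 were 6 of 12 replication genes, 6 of 8 G1 and S genes and 10 of 18 mitosis genes. The same pair of groups was the highest in 4 genes (10.5%; Pcna, Ccnd1, Aurka and Bub1b), against 26.6% of loci. For Pcna this order is uncertain because of a pseudogene, as given below. The groups labelled Ago2+/+ DMSO and Ago2-/- thapsigargin were the highest pair in 14 genes (36.8%), among them Ccne1, Ccne2, E2f1, Ccna2, Ccnb2, Top2a and Mki67, against 17.6% of loci, and the lowest pair in 1 gene, Tyms (2.63%), against 19.6% of loci. For the groups labelled Ago2-/- tunicamycin and Ago2+/+ thapsigargin, 6 genes (15.8%) had them lowest, against 23.8% of loci, and 8 genes (21.1%) had them highest, against 26.0% of loci. One of these 3 pairs was at an end for 35 of the 38 genes (92.1%; all but Mcm7, Cdk4 and Plk1) and for 89.4% of loci. Some markers were also set apart in Ago2+/+ tunicamycin and Ago2-/- DMSO, a pair that was lowest in 26.4% and highest in 26.6% of all loci. The summed level of the 13 markers of other cell types was 7.25 and 7.36 FPKM in Ago2+/+ tunicamycin and Ago2-/- DMSO, of which Sox2 made up 5.72 and 5.86 FPKM, and 1.57 to 2.04 FPKM in the other 4 groups. The summed level of the 11 fibroblast markers was 3967 and 4011 FPKM in these 2 groups and 3036 to 3698 FPKM in the others. Among them, Col1a1 was at 6.77 and 5.97 FPKM, against 87.1 to 651 elsewhere, and Col1a2 at 26.8 and 23.7 FPKM, against 86.2 to 577. Vim, which made up most of both sums, was at 2634 and 2580.0 FPKM, against 952 to 1439. Col3a1 (6.93 and 6.60 FPKM, against 9.78 to 30.9) and Pdgfra (0.488 and 0.903, against 2.62 to 8.72) were also low there. Prrx1 was high there, at 43.25 and 42.4 FPKM, against 13.2 to 29.5. Fn1, S100a4, Pdgfrb and Twist1 were not set apart: their values in these 2 groups lay between those of the other 4. The part of these markers in the order was not tested. In bulk RNA, fewer dividing cells and less of these mRNAs per dividing cell cannot be told apart.

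**Figure D2:**
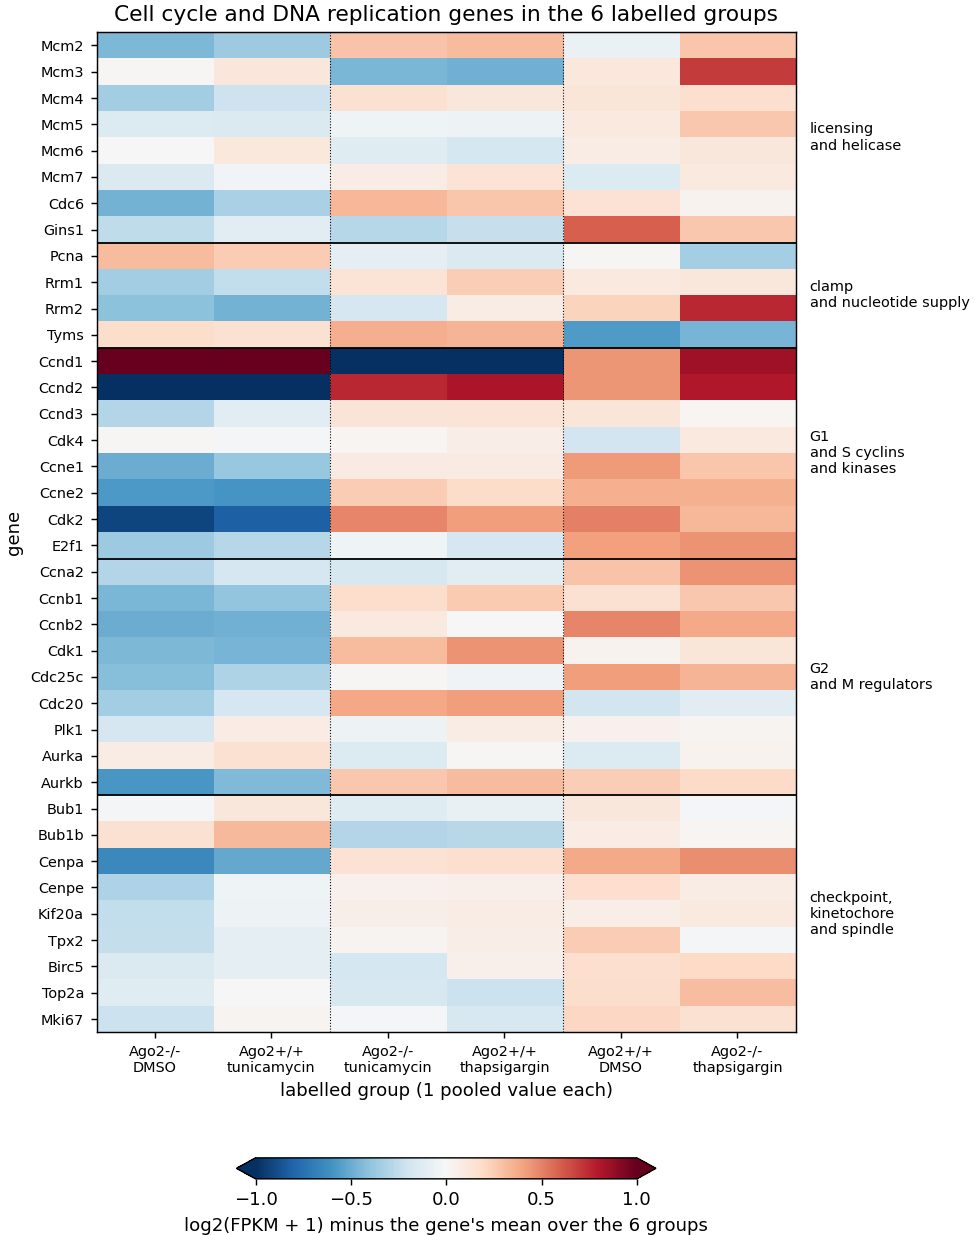
Level of the 38 genes (rows, by role) in the 6 labelled groups (columns, 1 pooled value each), as log2(FPKM + 1) minus the gene's mean over the groups, with the colour scale ending at 1 in both directions, which Ccnd1 and Ccnd2 exceed. The first 2 columns, Ago2-/- DMSO and Ago2+/+ tunicamycin, are the lowest for 22 genes, and Ccnd1 is high there and at its lowest in the next 2 columns.

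**Figure D3:**
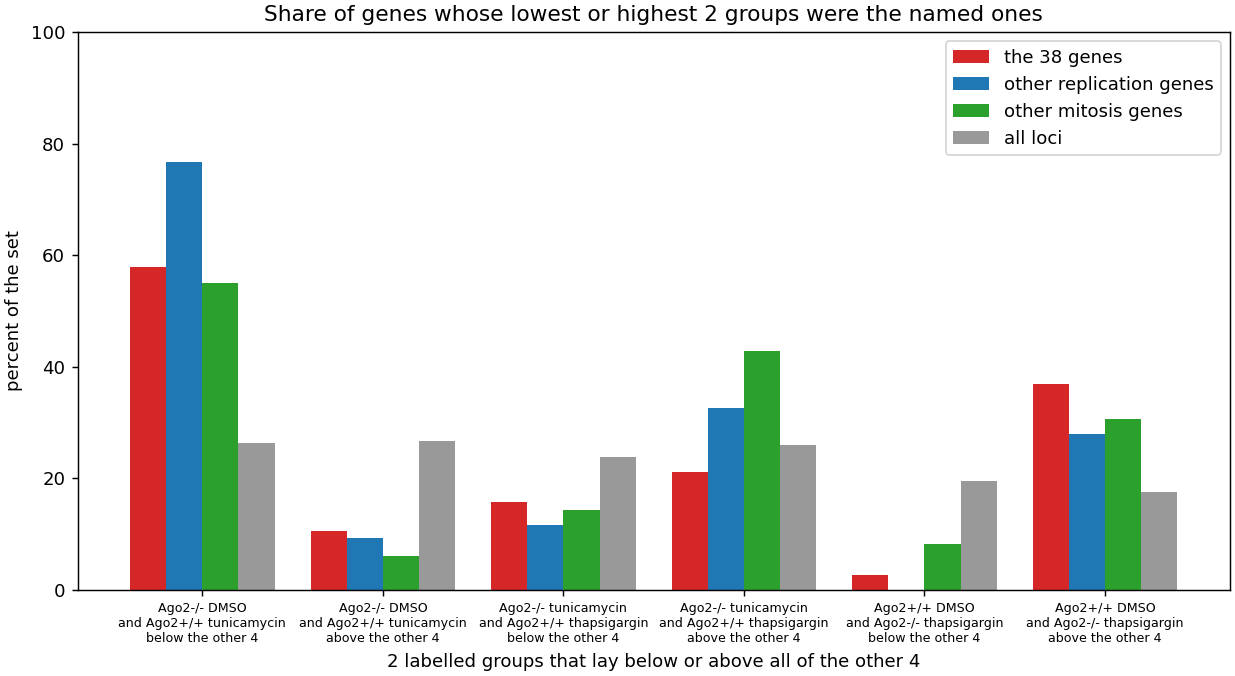
Percent of the 38 genes, of 43 other replication genes, of 49 other mitosis genes and of all 11929 loci whose 2 lowest or 2 highest groups were the 2 named ones. The first set of bars reads 57.9%, 76.7%, 55.1% and 26.4%.

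The G1 and S genes differed most. Coordinates beside gene names, here and below, are those of the deposited locus, to which the FPKM belongs. That locus runs past the annotated gene for some. Among these are Ccnd1 (gene at 144929931-144939925), Ccnd2 (127125162-127152193), Cdk2 (128697939-128705031) and Ccne2 (11191351-11204779). Ccnd1 (ENSMUSG00000070348, GRCm38 chr7:144915100-144939925), the cyclin D1 gene, was at 85.7, 207 and 13.4 FPKM with DMSO, tunicamycin and thapsigargin under the Ago2+/+ label, and at 193, 10.6 and 114 FPKM under the Ago2-/- label. It was thus highest in Ago2+/+ tunicamycin and Ago2-/- DMSO and lowest in Ago2-/- tunicamycin and Ago2+/+ thapsigargin, an 18.01-fold range. Ccnd2 (cyclin D2, chr6:127122966-127212411) stood at 56.3, 14.6 and 73.3 FPKM in the Ago2+/+ groups and at 15.1, 70.1 and 72.1 FPKM in the Ago2-/- groups, in the same order of treatments. It was low where Ccnd1 was highest and high elsewhere, a 4.76-fold range. Ccnd3 (cyclin D3) varied little, with 60.3, 50.9 and 60.9 FPKM under the Ago2+/+ label and 45.0, 60.4 and 56.0 FPKM under Ago2-/-. The most abundant D-type cyclin was therefore Ccnd1 in 4 groups and Ccnd2 in the groups labelled Ago2+/+ thapsigargin and Ago2-/- tunicamycin.

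Cdk2 (chr10:128697939-128744855), the kinase partner of E-type cyclins, was at 53.4, 20.8 and 50.3 FPKM in the Ago2+/+ groups and at 19.4, 52.9 and 47.4 FPKM in the Ago2-/- groups. Its lowest 2 values were those of Ago2+/+ tunicamycin and Ago2-/- DMSO, well apart from the other 4. The cyclin E genes followed the same order. Ccne1 was at 17.0, 9.30 and 13.2 FPKM under the Ago2+/+ label and 8.47, 13.1 and 15.2 FPKM under Ago2-/-. Ccne2 was at 26.1, 13.1 and 23.0 FPKM and at 13.2, 24.3 and 26.1 FPKM. E2f1, the transcription factor of the G1 to S step, was at 28.7, 17.4 and 19.0 FPKM and at 16.4, 20.8 and 29.5 FPKM, so that it was highest in Ago2+/+ DMSO and Ago2-/- thapsigargin. Cdk4, the kinase partner of D-type cyclins, was the steadiest of the class, with 509.9, 578 and 609.8 FPKM under the Ago2+/+ label and 588, 588.5 and 623 FPKM under Ago2-/-, a 1.22-fold range.

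**Figure D4:**
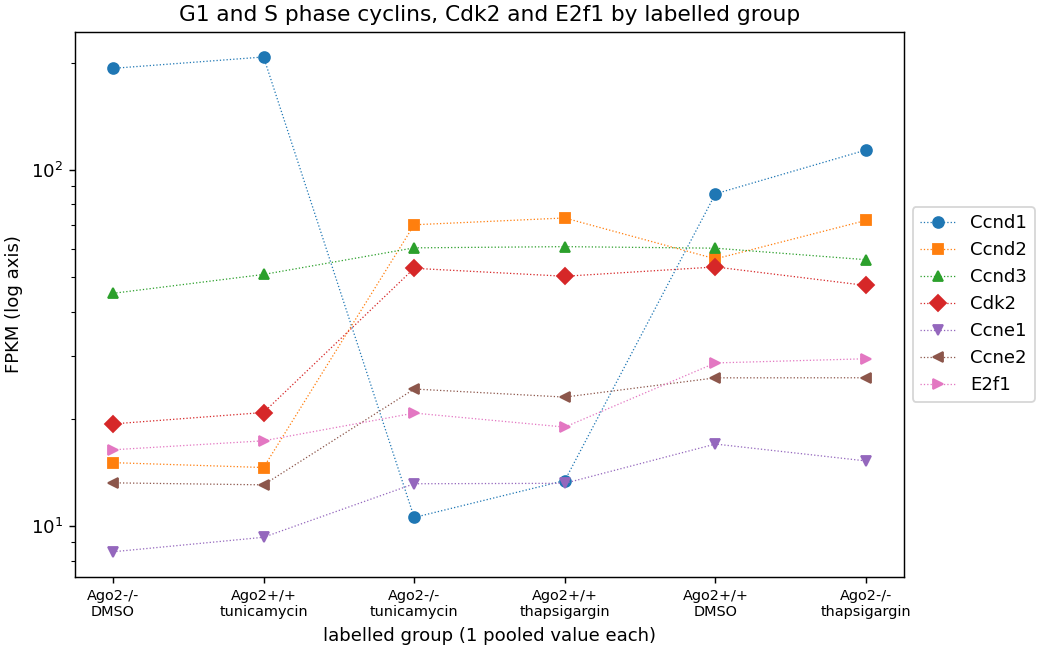
FPKM (log axis) of the D- and E-type cyclins, Cdk2 and E2f1 in the 6 labelled groups, 1 pooled value each, with dotted lines that only guide the eye between groups without an order. Ccnd1 runs from 10.6 to 207 FPKM and is highest in the groups in which Ccnd2, Cdk2, Ccne1 and Ccne2 are lowest.

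Among licensing and helicase genes, Mcm3 (chr1:20802968-20820312) had the widest range, 2.26-fold. It was at 127, 127 and 84.0 FPKM in the Ago2+/+ groups and at 118, 85.6 and 191 FPKM in the Ago2-/- groups, lowest in Ago2+/+ thapsigargin and Ago2-/- tunicamycin and highest in Ago2-/- thapsigargin alone. Gins1, a subunit of the helicase cofactor GINS, was at 39.8, 24.0 and 21.9 FPKM and at 21.6, 21.1 and 31.5 FPKM. Cdc6 (chr11:98907801-98923940), the licensing factor, was at 41.5, 29.7 and 45.7 FPKM and at 26.7, 47.4 and 38.4 FPKM, with its lowest values in Ago2-/- DMSO and Ago2+/+ tunicamycin. The subunits of the MCM helicase did not share 1 pattern. Mcm2 was lowest in those 2 groups (73.6 and 78.1 FPKM, against 96.0 to 125 in the others), as were Mcm4 (69.4 and 76.4, against 95.8 to 99.7) and Mcm5 (117 and 117, against 125 to 156). Mcm6 instead had its lowest values in Ago2+/+ thapsigargin and Ago2-/- tunicamycin (94.3 and 97.9 FPKM, against 107 to 116), as Mcm3 did. Mcm7, the steadiest subunit, was at 135, 146 and 164 FPKM in the Ago2+/+ groups and at 135, 157 and 159.8 FPKM in the Ago2-/- groups, and its deposited locus holds further gene identifiers besides Mcm7.

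In the clamp and nucleotide supply, Rrm2, the regulated subunit of ribonucleotide reductase, was at 95.9, 58.8 and 86.1 FPKM in the Ago2+/+ groups and at 61.4, 72.6 and 139 FPKM in the Ago2-/- groups, a 2.34-fold range. Rrm1, its large subunit, had the smallest range of the 4, with 119, 94.0 and 132 FPKM and then 87.4, 122 and 121 FPKM, and was lowest in Ago2-/- DMSO and Ago2+/+ tunicamycin like Rrm2. Tyms (chr5:30058202-30073617), thymidylate synthase, went another way: 65.6, 109 and 124 FPKM in the Ago2+/+ groups and 110.2, 126 and 70.7 FPKM in the Ago2-/- groups. It was the only gene of the 38 that was lowest in both Ago2+/+ DMSO and Ago2-/- thapsigargin. Pcna, the sliding clamp of DNA polymerase, was at 233, 276 and 209 FPKM and at 288, 217 and 182 FPKM, highest in the 2 groups in which most of the list was lowest. Its processed pseudogene Pcna-ps2 was listed at 68.4 and 52.9 FPKM in Ago2+/+ DMSO and Ago2-/- thapsigargin and at 1.98 to 3.01 FPKM elsewhere. No source used here says how shared reads were split. This leaves the Pcna values uncertain, and with them which groups were highest for Pcna. The values of Ccnb1 are uncertain too, as its pseudogene Ccnb1-ps was listed at 4.07 to 6.75 FPKM.

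Of the regulators of G2 and M phase, Ccnb2 (cyclin B2, chr9:70407692-70421547) ranged most. It was at 85.9, 43.4 and 60.8 FPKM in the Ago2+/+ groups and at 42.8, 65.3 and 79.5 FPKM in the Ago2-/- groups. Cdk1 (chr10:69335146-69352938), which binds A- and B-type cyclins, was at 269.6, 190.5 and 361 FPKM and at 193, 329 and 286 FPKM. Aurkb, the Aurora kinase of the chromosomal passenger complex, was at 71.4, 44.0 and 74.9 FPKM and at 39.7, 72.6 and 68.6 FPKM. All of the 3 were lowest in Ago2-/- DMSO and Ago2+/+ tunicamycin, and so were Ccna2 (109 and 119.6 FPKM, against 119.8 to 183), Ccnb1 (91.4 and 95.7, against 139.9 to 152) and Cdc25c, the phosphatase that activates Cdk1 (12.9 and 14.1, against 17.3 to 24.1). For Ccna2 the gap to the next group was under 1 FPKM. Cdc20, the activator of the anaphase-promoting complex, was set apart by high values in Ago2+/+ thapsigargin and Ago2-/- tunicamycin (159 and 155 FPKM, against 93.1 to 110.2). Aurka, the centrosomal Aurora kinase, stayed between 66.5 and 81.5 FPKM and Plk1, the polo-like kinase and steadiest of the class, was at 72.7, 74.1 and 74.1 FPKM in the Ago2+/+ groups and at 62.6, 67.9 and 72.0 FPKM in the Ago2-/- groups.

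The checkpoint, kinetochore and spindle genes were the steadiest class, with a median range of 1.39-fold and 7 of 9 under 1.5-fold. The other 2 were Bub1b and Cenpa. Cenpa (chr5:30666777-30674830), the histone H3 variant of centromeres, was at 158.5, 85.4 and 137 FPKM in the Ago2+/+ groups and at 77.5, 134.5 and 169 FPKM in the Ago2-/- groups, a 2.16-fold range with the lowest values again in Ago2-/- DMSO and Ago2+/+ tunicamycin. Bub1b, the checkpoint kinase BubR1, was at 59.0, 70.5 and 46.2 FPKM and at 62.5, 45.6 and 57.0 FPKM, a 1.53-fold range, highest where Cenpa was lowest. Top2a, the topoisomerase that untangles sister chromatids, was at 275, 244 and 209.7 FPKM and at 224, 218 and 302 FPKM. Bub1, the other checkpoint kinase, had the smallest range of the 38, with 43.1, 43.0 and 37.6 FPKM in the Ago2+/+ groups and 39.4, 36.4 and 39.3 FPKM in the Ago2-/- groups. The remaining genes of the class were Cenpe (28.9 to 40.5 FPKM), Kif20a (52.6 to 67.2), Tpx2 (83.3 to 117), Birc5 (131 to 170.4) and Mki67 (56.2 to 75.4), which encode a kinetochore motor, a motor of cytokinesis, a spindle assembly factor, survivin and the Ki-67 antigen. Kif11, the bipolar spindle motor, was listed at only 0.176 to 0.571 FPKM, far below every other gene of the list, and was left out of every count of levels, though its promoter is among the 14 above.

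Tunicamycin was compared with DMSO within each label. The groups compared also differed in Ago2 and in fibroblast markers. With DMSO and tunicamycin, Col1a1 was at 112 and 6.77 FPKM under the Ago2+/+ label and at 5.97 and 651 FPKM under Ago2-/-. The part of the stressor in the differences was not tested. Under the Ago2+/+ label, 11 of 38 genes (28.9%) were lower by at least 1.5-fold of FPKM + 1, against 14.0% of loci, and 2 genes, Tyms and Ccnd1, were higher, against 15.2% of loci. The 11 were Gins1, Rrm2, Ccnd2, Ccne1, Ccne2, Cdk2, E2f1, Ccnb2, Cdc25c, Aurkb and Cenpa, that is 5 of 8 G1 and S genes, 4 of 18 mitosis genes and 2 of 12 replication genes. The median log2 ratio was -0.28 for the list and 0.01 for all loci, and by class it was -0.75 for G1 and S genes, -0.24 for mitosis genes and -0.27 for replication genes. Under the Ago2-/- label, whose DMSO group barely differed from Ago2+/+ tunicamycin in the list, the same comparison went the other way. There, 11 genes (28.9%) were higher, against 19.3% of loci, and 1 gene, Ccnd1, was lower, against 17.5% of loci. These 11 were Mcm2, Cdc6, Ccnd2, Ccne2, Cdk2, Ccnb1, Ccnb2, Cdk1, Cdc20, Aurkb and Cenpa, and the medians were 0.28 for the list, 0.50 for G1 and S genes, 0.28 for mitosis genes and 0.20 for replication genes.

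The comparison of thapsigargin with DMSO followed, with the same limit. Under the Ago2+/+ label, 3 genes (7.89%), Mcm3, Gins1 and Ccnd1, were lower, against 12.6% of loci, and 2 genes, Tyms and Cdc20, were higher, against 14.9% of loci, so fewer of these genes than of all loci were past the fold in either direction. Its median was -0.13. Under the Ago2-/- label, 14 genes (36.8%) were higher, against 14.3% of loci, and 3 genes, Pcna, Tyms and Ccnd1, were lower, against 16.8% of loci. The 14 were Mcm2, Mcm3, Rrm2, Ccnd2, Ccne1, Ccne2, Cdk2, E2f1, Ccna2, Ccnb1, Ccnb2, Cdc25c, Aurkb and Cenpa, and the median was 0.45, with 0.79 for G1 and S genes, 0.49 for replication genes and 0.37 for mitosis genes. Both stressors share 1 DMSO group within a label, so their values are not separate evidence.

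Ago2-/- was compared with Ago2+/+ under each treatment, to ask what differed with the label. Under DMSO, 13 genes (34.2%) were lower in Ago2-/-, against 14.3% of loci, and Tyms and Ccnd1 were higher, against 15.1% of loci. The 13 were Cdc6, Gins1, Rrm2, Ccnd2, Ccne1, Ccne2, Cdk2, E2f1, Ccnb1, Ccnb2, Cdc25c, Aurkb and Cenpa, and the median log2 ratio was -0.43. Under tunicamycin, 8 genes (21.1%), namely Mcm2, Cdc6, Ccnd2, Ccne2, Cdk2, Cdk1, Aurkb and Cenpa, were higher, against 18.7% of loci, and Ccnd1 and Bub1b were lower, against 17.1% of loci. That share of higher genes is close to the share of all loci. Under thapsigargin, 4 genes (10.5%), namely Mcm3, Rrm2, Ccnd1 and E2f1, were higher, against 12.4% of loci, and 1 gene, Tyms, was lower, against 15.9% of loci. The median of the label comparison was thus negative under DMSO (-0.43), positive under tunicamycin (0.17) and near 0 under thapsigargin (0.04). These comparisons use the same groups as those of the stressors, so they are not separate evidence. The closest groups crossed the labels, as given next, so several comparisons are nearly the same contrast. Tunicamycin against DMSO in Ago2+/+ and the label comparison under DMSO, for instance, set Ago2+/+ DMSO against groups that barely differed in the list.

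The groups that were closest across the whole table crossed the labels, and the list barely differed between them. Between Ago2+/+ tunicamycin and Ago2-/- DMSO, none of the 38 genes was higher or lower by 1.5-fold, against 0.780% of loci higher and 1.17% lower, and the largest difference was a log2 ratio of 0.26, for Cenpe. Between Ago2+/+ thapsigargin and Ago2-/- tunicamycin, again none was, against 1.15% higher and 1.21% lower, and the largest was 0.32, for Ccnd1. Between Ago2-/- thapsigargin and Ago2+/+ DMSO, 1 gene, Mcm3, was higher, at 0.59 and so just past the fold of 0.585 on the log2 scale, against 2.84% of loci, and none was lower, against 2.77% of loci. The median absolute log2 ratio of the list in these 3 comparisons was 0.11, 0.05 and 0.11, in that order, and 0.08, 0.11 and 0.15 for all loci.

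**Figure D5:**
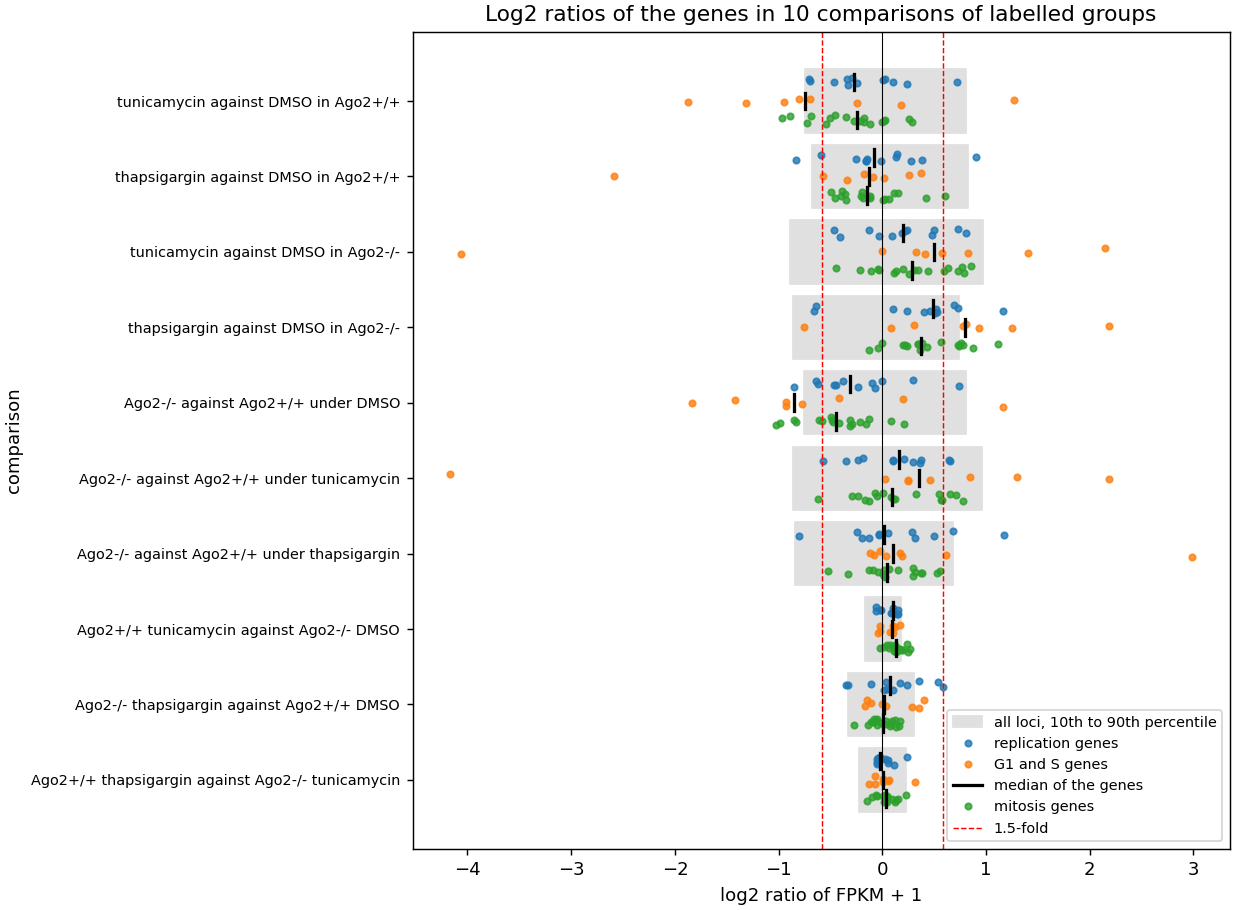
Log2 ratio of FPKM + 1 of each of the 38 genes (points, by class, with class medians as black bars) in the 10 comparisons of labelled groups, over the 10th to 90th percentile of all 11929 loci (grey) and with dashed lines at 1.5-fold. The genes lean left in tunicamycin against DMSO in Ago2+/+ (median -0.28) and in Ago2-/- against Ago2+/+ under DMSO (-0.43), right in both stressors under the Ago2-/- label (0.28 and 0.45), and sit near 0 in the last 3 comparisons.

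Other genes of the same pathways, from lists of genes that the 41 do not include, shared the lowest pair of groups. By count the pair most often highest was another one, but both pairs given below were highest more often than over all loci. Of 43 other replication genes, 33 (76.7%) were lowest in Ago2-/- DMSO and Ago2+/+ tunicamycin, and of 49 other mitosis genes 27 (55.1%) were, against 26.4% of loci. The 27 include Nek2, whose order outside Ago2+/+ DMSO rests on values below 0.14 FPKM. Some loci of these lists, such as that of Pole2, hold further gene identifiers. The highest pair was most often Ago2-/- tunicamycin and Ago2+/+ thapsigargin, in 14 replication genes (32.6%) and 21 mitosis genes (42.9%), against 26.0% of loci. Ago2+/+ DMSO and Ago2-/- thapsigargin were the highest pair in 12 (27.9%) and 15 (30.6%), against 17.6% of loci, whereas in the 38 genes this pair was the highest more often (36.8%) than the former (21.1%). Of the 43 replication genes, 12 (27.9%) were lower and 2 (4.65%) higher in Ago2-/- than in Ago2+/+ under DMSO, with a median log2 ratio of -0.37. Of the 49 mitosis genes, 13 (26.5%) were lower and none higher, with a median of -0.38, and of all loci 14.3% were lower and 15.1% higher. With tunicamycin against DMSO in Ago2+/+, 11 replication genes (25.6%) and 9 mitosis genes (18.4%) were lower, against 14.0% of loci, and 1 of each was higher, against 15.2% of loci. Uhrf1, which recruits maintenance DNA methylation to replicated DNA, was at 71.5, 41.4 and 93.2 FPKM in the Ago2+/+ groups and at 38.7, 93.2 and 91.8 FPKM in the Ago2-/- groups. Tipin, of the fork protection complex, was at 143.7, 68.9 and 120.5 FPKM and at 65.9, 106.8 and 154 FPKM. Pola1, the catalytic subunit of DNA polymerase alpha, was the steadiest of the replication list at 25.1 to 27.7 FPKM. In the mitosis list, the centrosomal kinase Nek2 was at 6.38 FPKM in Ago2+/+ DMSO and below 0.14 FPKM in all other groups, the kinetochore gene Cenpk ran from 10.1 to 38.7 FPKM with its lowest values in Ago2-/- DMSO and Ago2+/+ tunicamycin, and the condensin gene Ncapg stayed within 37.4 to 43.6 FPKM.

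The promoters of these lists were searched for the same letters. E2F-like letters were in 11 of 45 promoters of other replication genes (24.4%) and in 5 of 51 of other mitosis genes (9.80%), against 2.26% of all promoters. CHR letters were in 8 of 45 (17.8%) and 37 of 51 (72.5%), against 19.2% of all promoters. CCAAT was in 20 of 45 (44.4%) and 35 of 51 (68.6%), against 37.4% of all promoters, so its share in other replication genes was well below the 81.8% of the 11 promoters above.

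Transcription regulators of the cycle gave a more mixed picture. In 8 of 19 (42.1%), among them Rb1, Rbl1, E2f7 and Lin9, the lowest groups were Ago2-/- DMSO and Ago2+/+ tunicamycin, against 26.4% of loci. In 4 (21.1%; E2f2, E2f3, E2f6 and Myc) these were the highest, against 26.6% of loci. E2f6, a repressor of the E2F family, was at 5.36, 23.6 and 7.88 FPKM in the Ago2+/+ groups and at 21.6, 7.55 and 12.7 FPKM in the Ago2-/- groups, opposite to Cdk2. E2f8, an atypical repressor, was at 23.0, 10.9 and 8.52 FPKM and at 11.7, 9.06 and 21.7 FPKM, with both highest values in Ago2+/+ DMSO and Ago2-/- thapsigargin, and Lin9, of the DREAM and MuvB complexes, was the steadiest at 12.6 to 17.7 FPKM. Under DMSO, 6 of the 19 (31.6%) were lower and 2 (10.5%) higher in Ago2-/- than in Ago2+/+, against 14.3% and 15.1% of loci, with a median log2 ratio of -0.49.

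Inhibitors of the cycle differed more than the machinery did. Cdkn1c, which encodes p57, was listed at 7.81 and 10.97 FPKM in Ago2+/+ thapsigargin and Ago2-/- tunicamycin and at 0 to 0.186 FPKM in the other 4 groups. Cdkn2c, which encodes the Cdk4 and Cdk6 inhibitor p18, was at 28.5, 4.95 and 32.0 FPKM in the Ago2+/+ groups and at 5.16, 36.2 and 27.5 FPKM in the Ago2-/- groups, low in the groups in which Ccnd1 was highest. Cdkn1b, which encodes p27, had the smallest range, from 17.7 to 29.2 FPKM. By its own values, Cdkn2a, which encodes p16 and p19Arf, was abundant in all groups at 180.5 to 346 FPKM. Of these 12 inhibitors, 7 (58.3%) were higher and 3 (25%) lower with tunicamycin than with DMSO under the Ago2-/- label, against 19.3% and 17.5% of loci. Under the Ago2+/+ label 3 (25%) were higher and 4 (33.3%) lower, against 15.2% and 14.0% of loci.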

How the data were processed

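RNA of 18 libraries, 3 for each of 6 labelled groups, was sequenced. Per the submitters' processing notes and the study's methods, the authors checked reads with FastQC 0.11.7, mapped them with HISAT2 2.1.0 (build GRCm38, Ensembl release 91), assembled transcripts with StringTie 1.3.4d and quantified them with Cuffdiff 2.2.1. The deposited table gives 1 pooled FPKM per locus and group, in 772485 rows for 15 pairs of groups. Its columns of fold changes, test statistics, p-values, q-values and significance are the authors' own comparisons and were not used. Columns of values per sample outside the series numbered 0.

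Each group's FPKM was read once per locus, and values repeated between rows were identical. Log2 ratios were taken of FPKM + 1, loci needed a mean of at least 1 FPKM, and genes were counted past 1.5-fold beside all loci. Depth is unknown from FPKM, so no interval was computed, and with 1 value per group there is no replicate check or p-value. Genes with their 6 values in full were E2f1, the D-type cyclins, and the 3 widest and the 1 steadiest of each role. Of other lists the 2 widest and the 1 steadiest were named. Further genes were named after their values were seen, as was the count by order of groups. The genes, lists and crossed comparisons were chosen with earlier results of these data known. Promoters came from RefSeq. Counting was tested on simulated data. Python 3.11.15, pandas 2.3.3, scipy 1.17.1 and matplotlib 3.10.9 were used.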

Additional observations from a re-analysis of the deposited data

Results flagged for a closer look

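For 9 genes the difference between stressor and DMSO was past 1.5-fold in opposite directions under the Ago2+/+ and the Ago2-/- labels. The share of all loci that turned in this way was not computed, so the counts cannot be called particular to this list. The difference between the labels was not tested, since each group has 1 pooled value. With tunicamycin there were 7 such genes. None of the 38 genes differed by 1.5-fold between Ago2+/+ tunicamycin and Ago2-/- DMSO. The former is the stressor group under the Ago2+/+ label and the latter is the DMSO group under Ago2-/-. A gene set apart from the rest in these groups, as each of the 7 was, therefore turns in direction by this alone. The log2 ratio in Ago2-/- minus that in Ago2+/+ was -5.33 for Ccnd1 (-4.07 and 1.27), 4.02 for Ccnd2 (2.15 and -1.88) and 2.72 for Cdk2 (1.41 and -1.32). It was 1.77 for Ccne2, 1.67 for Cenpa, 1.57 for Ccnb2 and 1.54 for Aurkb, each lower with tunicamycin under Ago2+/+ and higher under Ago2-/-. With thapsigargin there were 2 such genes, with a difference of 1.27 for Mcm3 (0.69 in Ago2-/- and -0.59 in Ago2+/+) and of -1.54 for Tyms (-0.63 and 0.90). Ago2 itself went with the same groups: it was 5.75 FPKM in Ago2+/+ tunicamycin and 5.61 FPKM in Ago2-/- DMSO, and its part was not tested.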

How the results depend on the processing

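A fold of 2 in place of 1.5 left fewer genes past it. These were 3 with tunicamycin and 1 with thapsigargin against DMSO in Ago2+/+, and 3 and 4 in Ago2-/-. For Ago2-/- against Ago2+/+ they were 4 under DMSO, 3 under tunicamycin and 2 under thapsigargin. For Ago2-/- thapsigargin against Ago2+/+ DMSO there were 0. The share of all loci past 2-fold in each comparison was not computed, so whether these counts exceed it is not known. Counts stayed within 1.5 times and medians within 0.1 on the log2 scale with a pseudocount of 0.1 FPKM, with no filter on low values and with ratios centred on the median of all loci. Keeping only loci that hold 1 gene name could change nothing, since 0 of these genes lie in a locus with several names. Gene identifiers were not looked at in this setting, and the loci of Mcm7 and Top2a hold 3 and 2 of them. Searching only the bases before the start lowered CHR letters in promoters of mitosis genes from 78.6% to 50% (17.1% of all promoters) and E2F-like letters in those of replication genes from 45.5% to 36.4% (1.86%). No paired analysis was possible because the table holds no value per library, and leaving out a library was not possible for the same reason. The depth behind each FPKM is unknown.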
